A study of Mus musculus with 6 samples.

Results

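The 10 genes described here encode transcription factors that act together in heart muscle: the homeodomain factor Nkx2-5, the zinc finger factors Gata4, Gata5 and Gata6, the T-box factors Tbx5 and Tbx20, the MADS-box factors Mef2a and Mef2c, and the basic helix-loop-helix factors Hand1 and Hand2. They were taken by symbol from a table of 13843 genes, and all 10 had a row. The set was chosen with earlier results of these data known. In the embryo these factors bind DNA side by side and interact as proteins, so that Nkx2-5, Gata4 and Tbx5 jointly switch on many genes of the contractile apparatus. They also divide the heart into regions. Hand1 marks mainly the left ventricle and Hand2 is best known for its role in the right ventricle, while Tbx5 acts in the atria, the left ventricle and the conduction system.

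The study compared ventricles with and without Vhl, the gene whose protein marks hypoxia-inducible factors (HIF) for destruction, in mice of C57BL/6 background. Each sample was the ventricular tissue of 1 embryo at E12.5. The knockout group carried Vhl(flox/flox) with Nkx2.5(Cre/+), and the control group Vhl(flox/flox) with Nkx2.5(+/+). Each group held 3 embryos, so all 6 carried floxed Vhl alleles, and only the knockouts carried Cre at Nkx2-5. No embryos with Cre and intact Vhl were analysed here, so loss of Vhl and the Cre allele cannot be told apart. How Cre was joined to Nkx2-5 is not given in the sources used here. Cre under Nkx2-5 acts where Nkx2-5 has been switched on, so other cells of the ventricle keep Vhl. The labels put knockout 1 and control 1 in litter 1 and knockout 2 and control 2 in litter 2. They put control 3 in litter 3 and knockout 3 in litter 4, whereas the design text counts 3 litters. Atria and valve tissue had been dissected off.

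Vhl itself stood at 11.1 and 10.3 in knockouts 1 and 2, at 34.5 for the library labelled knockout 3, and at 33.7, 36.3 and 38.6 in controls 1 to 3. The value of the library labelled knockout 3 goes against its label, so it is shown apart below, and results with all 6 libraries are given beside the others. Values are reads per gene divided by 1 factor per library, close to CPM, and the libraries held 9067805 to 12592902 reads. The 10 genes had from 233 to 5761 reads per library, so counting error weighs most on the least-read members, Hand1 and Gata5. All 8 heart muscle markers had a row, and their summed value was 25517 and 23770 in knockouts 1 and 2, 26643 for the library labelled knockout 3 and 23438 to 29129 in controls. Their median log2 fold change was -0.21 with 5 libraries, with 0 called by limma, edgeR or DESeq2 and 1 at an unadjusted p under 0.05 (limma). Summed endothelial markers (10 of 10 with a row) were at 1898 and 1925 in knockouts 1 and 2, above the 1653 to 1731 of controls, and 2 of them, Emcn and Egfl7, rose in the 5-library test described below. The library labelled knockout 3 had an endothelial sum of 1583, below all controls. Summed epicardial markers (8 of 8) were at 528 and 472, above the 296 to 394 of controls, with 350 for the library labelled knockout 3, and 2 of them, Wt1 and Upk1b, rose. Of the smooth muscle and mesenchymal markers (9 of 9, sums of 1734 and 1109 against 919 to 1142) Cnn1 rose, and of the atrial markers (7 of 8, 3838 and 3305 against 2754 to 2944) Myl7 rose. In both sums the library labelled knockout 3 was below all controls, at 719 for smooth muscle and mesenchymal markers and 2580 for atrial markers. Macrophage (6 of 7), erythroid (8 of 8) and outflow tract (4 of 7) markers had 0 genes past the limma threshold with 5 libraries, and their unadjusted p was under 0.05 for 0, 0 and 1 genes. On the same 5 libraries edgeR and DESeq2 also called 0 of them. No marker with a row was at 0 in any library. Markers of the atrioventricular canal and valves (5 of 5) also had 0 past it (0 at an unadjusted p under 0.05, 0 with edgeR and DESeq2), with sums of 115 (knockout 1), 219 (knockout 2), 89.8 (labelled knockout 3), 71.4 (control 1), 216 (control 2) and 236 (control 3). In RNA from whole ventricles, fewer cells of a type and less RNA per cell cannot be told apart. The part of cell makeup in any result below was not tested.

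RefSeq promoter windows of GRCm38.p6, from 250 bases before to 50 bases after a start site, were found for 6 of the 10 genes (Nkx2-5, Gata5, Tbx20, Mef2a, Mef2c and Hand2). The windows of 3 genes are printed because both knockouts with low Vhl lay below every control for these genes, as described further on. Capitals mark ACGTG or GCGTG, the core of HIF binding sites, on either strand, and GATAA, a core bound by GATA factors, which none of these 3 windows holds.
Nkx2-5, chr17:26841516-26841815, minus strand: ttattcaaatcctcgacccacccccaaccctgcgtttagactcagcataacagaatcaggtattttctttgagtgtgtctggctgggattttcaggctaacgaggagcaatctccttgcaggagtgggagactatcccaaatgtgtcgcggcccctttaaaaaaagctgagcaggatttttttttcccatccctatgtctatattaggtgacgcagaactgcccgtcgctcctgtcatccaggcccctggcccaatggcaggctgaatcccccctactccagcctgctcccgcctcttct
Tbx20, chr9:24774254-24774553, minus strand: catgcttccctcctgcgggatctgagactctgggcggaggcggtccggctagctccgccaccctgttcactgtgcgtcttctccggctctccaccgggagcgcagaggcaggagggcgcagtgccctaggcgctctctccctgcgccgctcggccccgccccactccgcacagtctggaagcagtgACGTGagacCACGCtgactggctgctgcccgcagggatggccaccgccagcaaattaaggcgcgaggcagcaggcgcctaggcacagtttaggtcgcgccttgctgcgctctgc
Mef2a, chr7:67372809-67373108, minus strand: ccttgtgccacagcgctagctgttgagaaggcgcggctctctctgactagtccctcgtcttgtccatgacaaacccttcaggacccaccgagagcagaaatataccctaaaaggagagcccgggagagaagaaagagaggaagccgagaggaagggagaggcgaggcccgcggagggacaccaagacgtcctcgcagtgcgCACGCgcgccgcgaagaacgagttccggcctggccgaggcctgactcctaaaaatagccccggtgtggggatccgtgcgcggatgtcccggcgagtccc
The Tbx20 window held 2 HIF cores, 64 and 55 bases before the start site, the Mef2a window held 1, 49 bases before it, and the Nkx2-5 window held 0. The Nkx2-5 window lies inside the annotated gene (26838664 to 26845009), so the upstream end of that annotation was not searched. Of all 32851 windows of 300 bases, 43.8% held at least 1 HIF core and 25.4% a GATAA core. Over the 8 windows of members (Mef2c has 3), 5 held a HIF core and 2 a GATAA core. In the Gata5 window the 2 HIF matches are the same letters read on both strands. AAGTG, a core bound by NKX2 factors, was in none of the 3 printed windows and in 46.4% of all windows. GGTGTG, a T-box core, was in the Mef2a window and in 19% of all windows. A match is a run of letters, and binding was not measured.

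**Figure D1:**
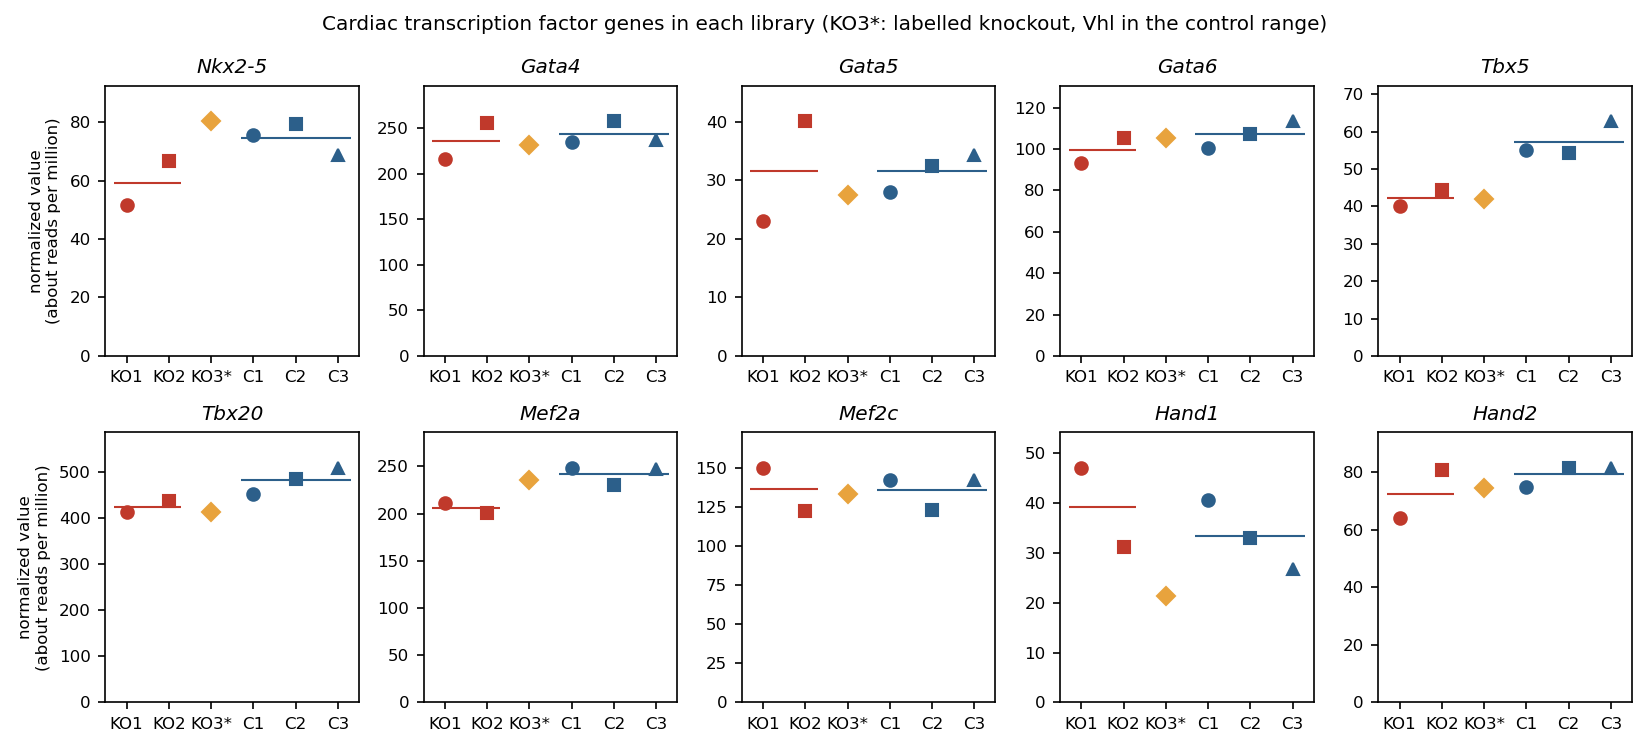
Normalized value of each of the 10 genes in every library, with the axis from 0. Red points are knockouts 1 and 2, the orange diamond is the library labelled knockout 3, blue points are controls, circles are litter 1, squares litter 2, triangles litter 3, and lines are means of knockouts 1 and 2 and of the 3 controls. Knockouts 1 and 2 lie below all 3 controls for Nkx2-5, Tbx5, Tbx20 and Mef2a, and of these 4 genes the library labelled knockout 3 does so for Tbx5 and Tbx20.

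Across the set, the differences between knockouts 1 and 2 and the controls were small and mostly downward. With 5 libraries (knockouts 1 and 2 against the 3 controls), 9 of 10 genes had a log2 fold change below 0 in limma, with a median of -0.12, where the median of all genes was -0.01 and 51.8% lay below 0. Of the 9, Mef2c was at -0.0016. On these libraries 8 of 10 were below 0 with edgeR and 7 of 10 with DESeq2, against 51.9% and 51.7% of all genes. Of the 10 genes 0 passed the threshold in either direction (limma on log2(value + 1), adjusted p under 0.05 over all genes), where 4.25% of all genes passed, 3.01% higher and 1.24% lower. At an unadjusted p under 0.05, limma had 3 of 10, namely Nkx2-5, Tbx5 and Mef2a, where 17.8% of all genes stood. On whole reads recovered from the values, edgeR called 1 of 10 as lower, Tbx5, where it called 4.12% of all genes (2.94% higher, 1.18% lower). At an unadjusted p under 0.05, edgeR had 3 of 10, against 17.9% of all genes. DESeq2 called the same gene, where it called 6.08% (4.05% higher, 2.03% lower). At an unadjusted p under 0.05, DESeq2 had 4 of 10 (Nkx2-5, Tbx5, Tbx20 and Mef2a), against 14.6% of all genes. Knockouts 1 and 2 were both below every control for 4 of 10 genes, against 17% of all genes, and both above every control for 0 of 10, against 18.1%.

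Each of litters 1 and 2 gave a knockout and a control, and 7 of 10 genes were lower in the knockout of both litters, against 32.6% of all genes. With litter as a block, limma called 2 of 10 as lower, Nkx2-5 and Tbx5, where 8.13% of all genes passed (4.92% higher, 3.21% lower). There 3 of 10 had an unadjusted p under 0.05, against 21.3% of all genes. In the same design edgeR called the same 2 genes, with 7.38% of all genes called (4.48% higher, 2.9% lower). It had 3 of 10 at an unadjusted p under 0.05, against 20.8% of all genes. DESeq2 called 0 of 10 there and had 1 at an unadjusted p under 0.05, with 3.12% of all genes called (2.18% higher, 0.932% lower) and 8.58% at an unadjusted p under 0.05. Marker lists moved in the same littermate fits. All 8 heart muscle markers had a log2 fold change below 0 there, with a median of -0.22, and limma called 1 of them lower (Ryr2), edgeR 0 and DESeq2 3. Of the epicardial markers 6 of 8 were called higher by limma and edgeR and 3 by DESeq2, and of the smooth muscle and mesenchymal markers 3 of 9 were called higher by limma and edgeR and 2 by DESeq2. Limma and edgeR each called 2 of 10 endothelial markers higher, and DESeq2 called 0. Limma called 1 erythroid marker, Hbb-bs, lower (log2 -0.77, adjusted p = 7.6e-05), and edgeR and DESeq2 each called 1 erythroid marker lower. The part of these markers in the members' calls was not tested. These fits have 4 libraries and a single residual degree of freedom, and lean on the variance shared across genes. With all 6 libraries as labelled, limma called 0 of 10 genes and 0% of all genes, and 2 of 10 had an unadjusted p under 0.05 against 6.21%. There edgeR called 0 genes, and DESeq2 called 7 genes higher and 4 lower with no member among them. All 3 libraries labelled knockout lay below all controls for 2 of 10 genes, against 4.65%, and above them for none, against 5.13%. Leaving out knockout 3 for its Vhl value was a choice made on these data, and the 5-library results rest on it.

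**Figure D2:**
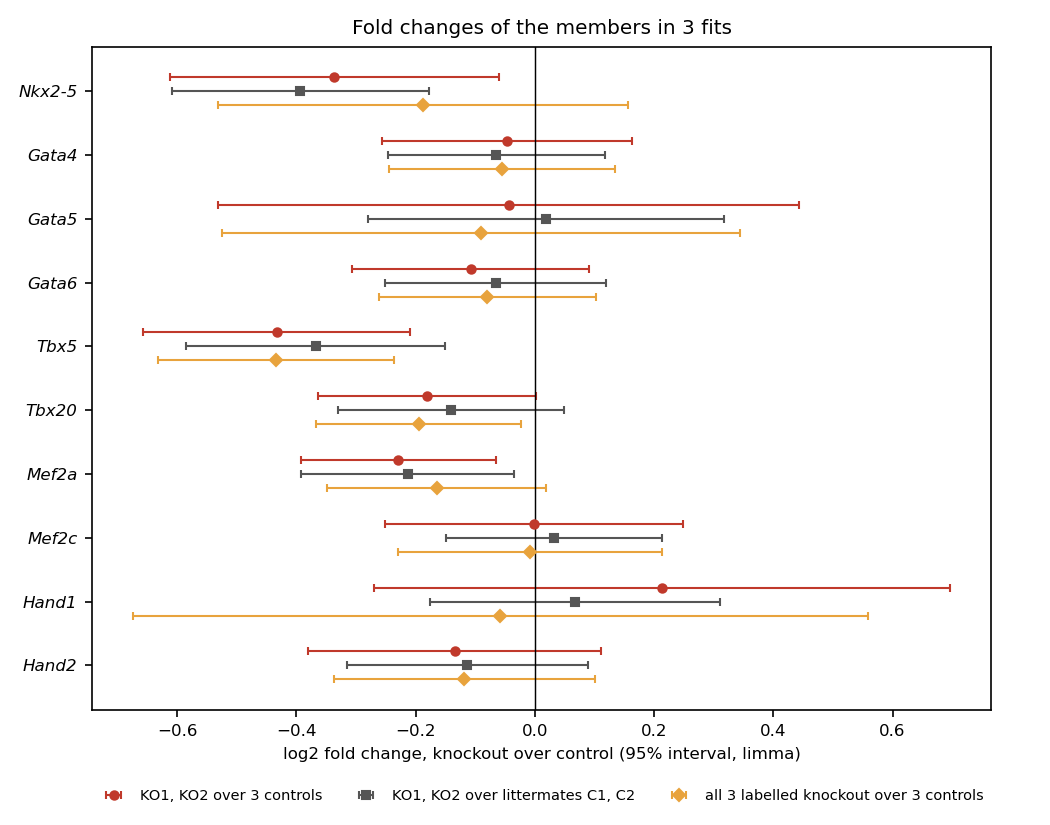
Log2 fold change of each gene, knockout over control, with 95% intervals from limma. Red circles compare knockouts 1 and 2 with 3 controls, grey squares compare them with their littermates, and orange diamonds take all 3 libraries labelled knockout. Only the Tbx5 intervals lie below 0 in all 3 fits, and the intervals are not adjusted for the number of genes.

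Nkx2-5 (ENSMUSG00000015579, chromosome 17, 26838664 to 26845009 on GRCm38), a homeodomain factor of early heart muscle cells and the locus that carries Cre, was at 51.6 and 66.7 in knockouts 1 and 2, against 75.7, 79.2 and 68.6 in controls 1 to 3. The library labelled knockout 3 was at 80.3, above all 3 controls, although its label also gives it the Cre allele. The 2 knockouts lay below every control, knockout 2 by a narrow margin beside control 3. The ratio of knockout over littermate was 0.683 in litter 1 and 0.842 in litter 2. The log2 fold change was -0.34 ± 0.12 (SE) with 5 libraries and did not pass (limma, adjusted p = 0.19; edgeR 0.21; DESeq2 0.20). Between littermates Nkx2-5 fell by 0.39 on the log2 scale (SE 0.10, limma, adjusted p = 0.029, and edgeR, adjusted p = 0.040), while DESeq2 gave an adjusted p of 0.33 for the same libraries. With all 6 libraries the fold change was -0.19 ± 0.15 (limma, adjusted p = 0.84). The table has 1 value for both alleles together. Among the 47 other genes within 1 Mb of Nkx2-5 on chromosome 17, 2 rose and 2 fell in the 5-library fit (limma). Of all genes, 3.01% rose and 1.24% fell in that fit. The median log2 fold change of the 47 genes was -0.03.

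The GATA factors did not differ detectably between the groups. Gata4, on chromosome 14, encodes a factor that heart muscle and endocardium need and that binds beside Nkx2-5 and Tbx5. It was at 217 and 256 in knockouts 1 and 2, 232 for the library labelled knockout 3, and 236, 258 and 237 in controls. The values of both groups overlap, and the 95% interval of the log2 fold change ran from -0.26 to 0.16. Gata6, on chromosome 18, whose protein shares many sites with Gata4, was at 93.3 and 105.3 in knockouts 1 and 2, 105 for the library labelled knockout 3, and 100.4, 107 and 113 in controls (interval -0.31 to 0.09). Gata5, on chromosome 2, is the member best known from endocardium and was the least steady of the 3. It was at 23.1 in knockout 1 and 40.1 in knockout 2, the lowest and the highest of all libraries, at 27.6 for the library labelled knockout 3, and at 28.0, 32.4 and 34.4 in controls. The ratio over the littermate was 0.827 for knockout 1 and 1.24 for knockout 2, and the interval of -0.53 to 0.44 leaves room for either direction. The valve and canal marker sum was likewise lower in knockout 1 (115) than in knockout 2 (219) and lower in control 1 (71.4) than in control 2 (216), and its part in the Gata5 values was not tested.

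The T-box factors had lower values in all 3 libraries labelled knockout. Tbx5, on chromosome 5 (119832668 to 119885219), a factor of atria, left ventricle and conduction system that is mutated in a human heart and hand syndrome, was at 40.0 and 44.4 in knockouts 1 and 2, against 55.1, 54.2 and 62.8 in controls. The library labelled knockout 3 was at 42.0, between the other knockouts, even though its Vhl value lay in the control range. The ratio of knockout over littermate was 0.726 in litter 1 and 0.820 in litter 2. The log2 fold change was -0.43 ± 0.10 (SE) with 5 libraries and narrowly missed the threshold (limma, adjusted p = 0.052). It passed with edgeR on the same libraries (adjusted p = 0.047), with DESeq2 (adjusted p = 0.019) and between littermates (limma, adjusted p = 0.041), though not with DESeq2 between littermates (adjusted p = 0.55). With all 6 libraries the fold change was again -0.43 ± 0.09 and had the fifth smallest p of all genes (limma, adjusted p = 0.77).

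Tbx20, on chromosome 9 (24718138 to 24774303), encodes a T-box factor that represses Tbx2 in the growing chamber muscle. It was at 413 and 436 in knockouts 1 and 2, against 453, 483 and 509 in controls, and the library labelled knockout 3 was the lowest of all at 412. The groups did not overlap, but the difference was small, with knockout over littermate ratios of 0.911 and 0.903. The log2 fold change was -0.18 ± 0.08 with 5 libraries (limma, adjusted p = 0.29), with a 95% interval of -0.36 to 0.00, and -0.19 ± 0.07 with all 6 (adjusted p = 0.77). Tbx5 and Tbx20 were the 2 members with all 3 libraries labelled knockout below all 3 controls. The ratio of Tbx5 to Tbx20 within a library, which does not depend on scaling, was -3.37 and -3.30 on the log2 scale in knockouts 1 and 2, -3.29 for the library labelled knockout 3 and -3.07 ± 0.08 in controls (SD, n = 3).

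Of the MEF2 genes, Mef2a had low values in both knockouts with low Vhl and Mef2c did not. Mef2a, on chromosome 7 (67231163 to 67372858), encodes a MADS-box activator of muscle and metabolic genes. It was at 212 and 200.9 in knockouts 1 and 2, against 249, 230.1 and 247 in controls, with the library labelled knockout 3 at 236, inside the control range. Both knockouts lay below every control, with ratios over their littermates of 0.851 and 0.873. The log2 fold change of -0.23 ± 0.07 did not pass (limma, adjusted p = 0.14, and 0.15 between littermates). Mef2c, on chromosome 13, which the early heart needs for looping and for the right ventricle, was at 150.3 and 122 in knockouts 1 and 2, 134 for the library labelled knockout 3, and 143, 123 and 142 in controls. Knockout 1 lay above all controls and knockout 2 below them by a narrow margin, and the log2 fold change was -0.00 with an interval of -0.25 to 0.25. The log2 ratio of Mef2a to Mef2c was 0.49 and 0.71 in knockouts 1 and 2, against 0.82 for the library labelled knockout 3 and 0.83 ± 0.06 in controls. Knockouts 1 and 2 were thus below the controls in this ratio, whose lowest control value was 0.80, and no test was run on it.

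The HAND genes did not pass in any fit, and Hand1 had the widest spread of the 10. Hand1, on chromosome 11, a marker of the left ventricle, was at 47.04 in knockout 1 and 40.5 in control 1 of litter 1, and at 31.1 in knockout 2 and 32.9 in control 2 of litter 2. The library labelled knockout 3 had 21.3 and control 3 had 26.6, the lowest values. Controls varied by 20.8% (coefficient of variation) in Hand1, against 4.29% to 10.4% in the other 9 genes. The 95% interval of its log2 fold change, -0.27 to 0.70, is correspondingly wide. Hand2, on chromosome 8, which acts in the right ventricle and outflow tract, was at 64.3 and 80.8 in knockouts 1 and 2, 74.5 for the library labelled knockout 3, and 74.8, 81.4 and 81.6 in controls (interval -0.38 to 0.11). The log2 ratio of Hand1 to Hand2 was -0.45 and -1.38 in knockouts 1 and 2, -1.80 for the library labelled knockout 3, and -0.88, -1.31 and -1.61 in controls 1 to 3. The lowest ratio was in the library labelled knockout 3 and the highest in knockout 1, so the range inside each group was wider than the distance between the groups.

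Litter 1 and litter 2 could be compared directly because each gave 1 knockout and 1 control. For 9 of 10 genes the litters stood in the same order in the knockout pair and in the control pair, against 57.3% of all genes. Hand1, Mef2c and Mef2a were higher in litter 1 in both pairs, and Gata4, Gata5, Gata6, Nkx2-5, Tbx20 and Hand2 were lower. Tbx5 was the exception, lower in litter 1 among knockouts and near 0 among controls. With genotype in the model, limma called 0 of 10 genes between the litters, where 2.02% of all genes passed (0.585% higher, 1.43% lower), while 5 of 10 had an unadjusted p under 0.05, against 11.8%. No other tool was run on this comparison. The largest differences were -0.49 ± 0.14 for Gata5 (SE, adjusted p = 0.12) and 0.44 ± 0.11 for Hand1 (adjusted p = 0.080), litter 1 over litter 2 on the log2 scale. All 5 markers of the atrioventricular canal and valves were lower in litter 1 in the same fit, with a median of -1.73. Their part in the litter difference of the 10 genes was not tested.

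**Figure D3:**
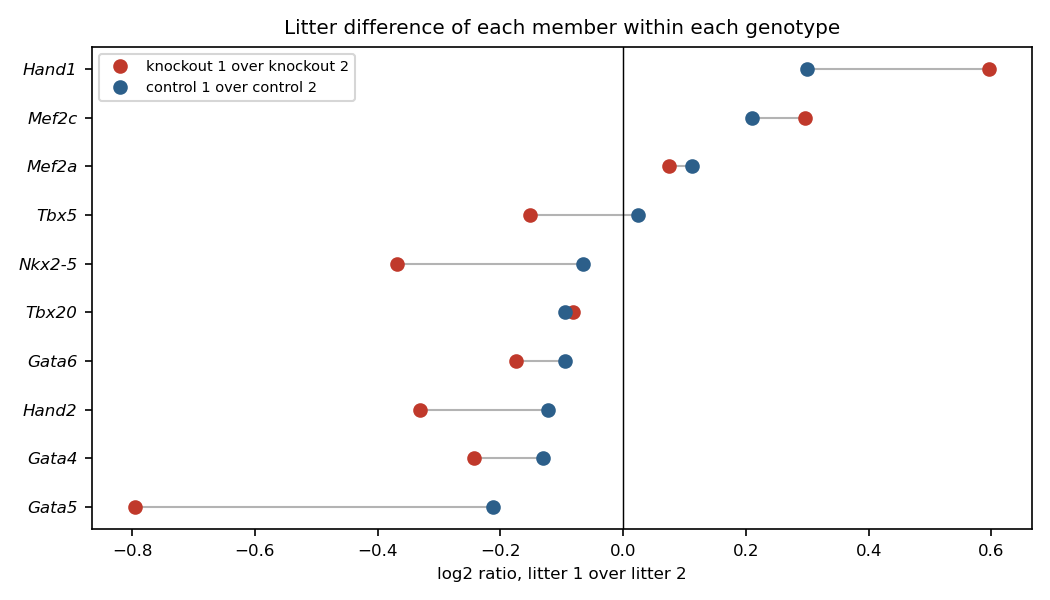
Log2 ratio of litter 1 over litter 2 for each gene, in red for knockout 1 over knockout 2 and in blue for control 1 over control 2. Points of both colours lie on the same side of 0 for 9 genes, and Tbx5 has points on opposite sides.

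Set apart, the library labelled knockout 3 was below all 3 controls for 6 of 10 genes (Gata4, Gata5, Tbx5, Tbx20, Hand1 and Hand2), where 21.7% of all genes were. It was above all controls for Nkx2-5 alone, where 22.2% of all genes were, and within the control range for Gata6, Mef2a and Mef2c. It therefore stood with knockouts 1 and 2 for Tbx5 and Tbx20, and on the other side of the controls for Nkx2-5.

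The order of levels among the 10 genes depends on the length used, so levels are given per kilobase on 2 scales: all annotated exons merged, and the median length of the transcripts that GENCODE tags as principal. Per kilobase of merged exons, Gata4 was highest in controls at 62.4 ± 3.19, and Nkx2-5 (43.3 ± 3.14) and Tbx20 (40.1 ± 2.34) followed, with overlapping ranges of mean ± SD (n = 3). Hand2 stood next at 33.7 ± 1.65. Hand1 (16.7 ± 3.47), Mef2a (16.5 ± 0.707) and Gata6 (16.4 ± 0.998) did not differ beyond their spread. Tbx5 (12.3 ± 1.01), Gata5 (9.64 ± 1.01) and Mef2c (8.66 ± 0.704) were lowest. Per kilobase of principal transcript, Mef2a was highest at 94.2 ± 4.04 and Mef2c was close to Tbx20 (53.0 ± 3.09) at 52.6 ± 4.27, since their merged exons span 14681 and 15715 bases, against 2570 and 2589 in principal transcripts. Gata4 (72.2 ± 3.69) kept a high place and Tbx5 (14.6) and Gata5 a low one on both scales. On the merged scale, Tbx5 was at 8.56 and 9.50 per kilobase in knockouts 1 and 2, below its control level, and Nkx2-5 was at 30.0 and 38.8.

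**Figure D4:**
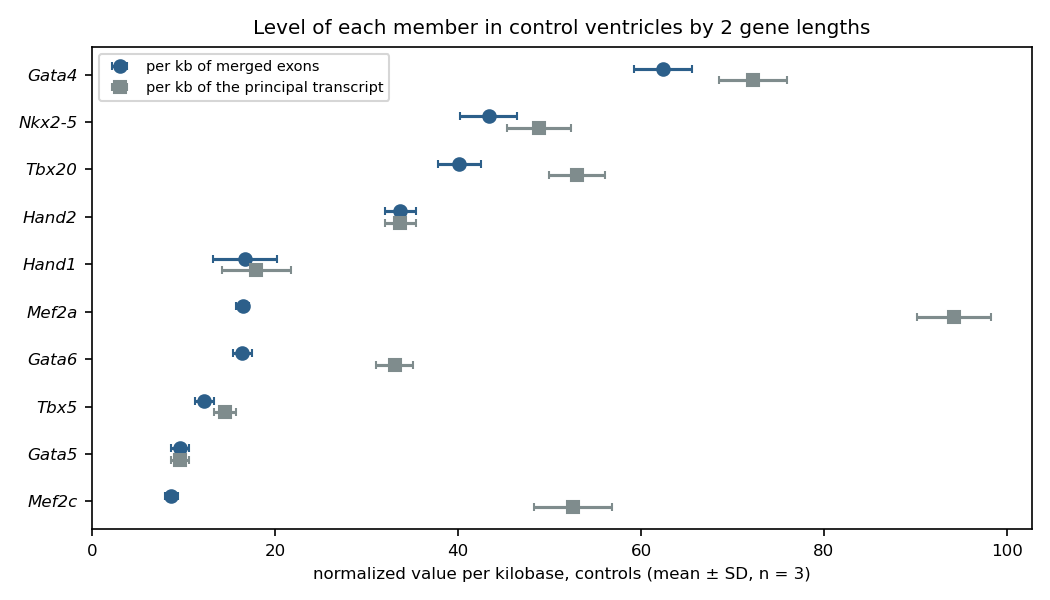
Level of each gene in control ventricles as normalized value per kilobase (mean ± SD, n = 3), by merged exon length (blue circles) and by principal transcript length (grey squares). Gata4 is high and Tbx5 and Gata5 are low by both lengths, whereas Mef2a and Mef2c change place.

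Genes that work with these factors were set beside them as a list of partners and cofactors. With limma on 5 libraries, 0 of 27 passed, where 4.25% of all genes did, 7 had an unadjusted p under 0.05, against 17.8% of all genes, and the median log2 fold change was -0.09. In that comparison edgeR called 0, DESeq2 called 1 higher and 1 lower, and littermates gave 2 higher and 2 lower with limma, where 8.13% of all genes were called. Between littermates edgeR called 2 higher and 1 lower, and DESeq2 called 0, with 5 at an unadjusted p under 0.05, so none of the limma calls named next was made by DESeq2. Between littermates Cited2, a HIF-induced protein that competes with HIF for coactivators, rose (43.1 and 51.5 in knockouts 1 and 2, against 30.7, 37.8 and 36.4 in controls; limma, adjusted p = 0.016). So did Wwtr1, the Hippo pathway coactivator TAZ, at 108 and 116 in knockouts 1 and 2, against 83.4, 89.4 and 93.6 in controls (adjusted p = 0.019). Cited2 was at 36.8 for the library labelled knockout 3, inside the control range, and Wwtr1 was at 94.96, above all controls. Hopx, a homeodomain protein that restrains Srf and lies downstream of Nkx2-5, fell between littermates and was at 130 and 113, against 153, 157 and 148 in controls (adjusted p = 0.031). Myocd, the heart and smooth muscle coactivator of Srf, was the other gene that fell there (adjusted p = 0.041), named after its value was seen. For Hopx (168) and Myocd (105) the library labelled knockout 3 lay above all controls.

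Of 25 measured genes on a list of 29 other cardiac transcription factors, 1 fell and 0 rose with 5 libraries (limma), with a median of -0.02, where 4.25% of all genes were called. With these 5 libraries 8 of 25 had an unadjusted p under 0.05 (limma), against 17.8% of all genes. On these libraries edgeR called 1 lower and DESeq2 3 lower. Between littermates limma and edgeR each called 2 higher and 2 lower, and DESeq2 1 lower. Of all genes, limma called 8.13% there, edgeR 7.38% and DESeq2 3.12%. The limma calls there were Tbx18 (adjusted p = 0.031) and Tcf21 (0.0071), both also on the epicardial marker list, as higher, and Prox1 (0.0043) and Etv1 (0.0084) as lower. The one that fell was Prox1, a homeobox factor of heart muscle and lymphatic endothelium, at 95.9 and 92.9 in knockouts 1 and 2, against 147, 122 and 123 in controls (limma, log2 -0.46 ± 0.09, adjusted p = 0.040). The library labelled knockout 3 was at 157 for Prox1, above all controls, unlike for Tbx5. Etv1, an ETS factor of fast-conducting muscle, was at 21.7 and 23.8, against 31.3, 37.8 and 30.5 in controls (adjusted p = 0.057 with 5 libraries), and at 36.1 for the library labelled knockout 3. Hey2, a Notch-regulated repressor of the compact wall, was at 117 and 121, against 139, 140.0 and 149.9 in controls (adjusted p = 0.086), and the library labelled knockout 3, at 170.5, was above all of them. The median of the 10 members, -0.12, was lower than that of both lists but not lower than the -0.21 of the 8 heart muscle markers. Whether the members differ from any of these lists was not tested.

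Known target genes in heart muscle moved both ways. The list shares Tnnt2, Myh6, Myh7, Myl3, Ryr2 and Tnni1 with the heart muscle markers, so the 2 lists are not separate. Of 29 measured targets, 1 rose and 2 fell with 5 libraries, with a median log2 fold change of 0.01, and between littermates 4 rose and 7 fell (limma), where 4.25% and 8.13% of all genes were called in these fits. With 5 libraries 14 of 29 targets had an unadjusted p under 0.05 (limma), against 17.8% of all genes. On 5 libraries edgeR called 1 higher and 2 lower and DESeq2 1 higher and 4 lower, and between littermates edgeR called 5 higher and 6 lower and DESeq2 5 and 7. Myl7, the atrial myosin light chain and also on the atrial marker list, was at 1275 and 1110 in knockouts 1 and 2, against 643, 606 and 737 in controls, and rose (log2 0.85 ± 0.11, limma, adjusted p = 0.0059). Pln, the inhibitor of the calcium pump of heart muscle, was at 815 and 667 in knockouts 1 and 2, against 1135, 1077 and 1099.8 in controls, and fell (log2 -0.58 ± 0.10, adjusted p = 0.022). The library labelled knockout 3 was at 1322 for Pln, above all controls, and at 545 for Myl7, below all controls. Ckm, the muscle creatine kinase and a classic MEF2 target, fell too, at 9.78 and 7.71, against 33.8, 17.6 and 20.2 in controls (adjusted p = 0.034), with 25.1 for the library labelled knockout 3. Outside the rule for named genes, and chosen after their values were seen, stand 2 joint targets of Nkx2-5 and Tbx5. Gja5, the connexin of fast conduction, was at 176 and 103 in knockouts 1 and 2, against 260.5, 209 and 240.0 in controls, and passed between littermates (limma, adjusted p = 0.00043) but not with 5 libraries (adjusted p = 0.079). Nppa, the atrial natriuretic peptide gene, was at 3748 and 2841 in knockouts 1 and 2, against 2712, 2095 and 1927 in controls, and did not pass in either fit (limma, adjusted p = 0.16 with 5 libraries and 0.063 between littermates). Both were below all controls in the library labelled knockout 3, at 169.7 for Gja5 and 1456 for Nppa. With all 6 libraries limma and edgeR called 0 genes of these lists, and limma had 2 partners, 3 other factors and 1 target at an unadjusted p under 0.05.

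**Figure D5:**
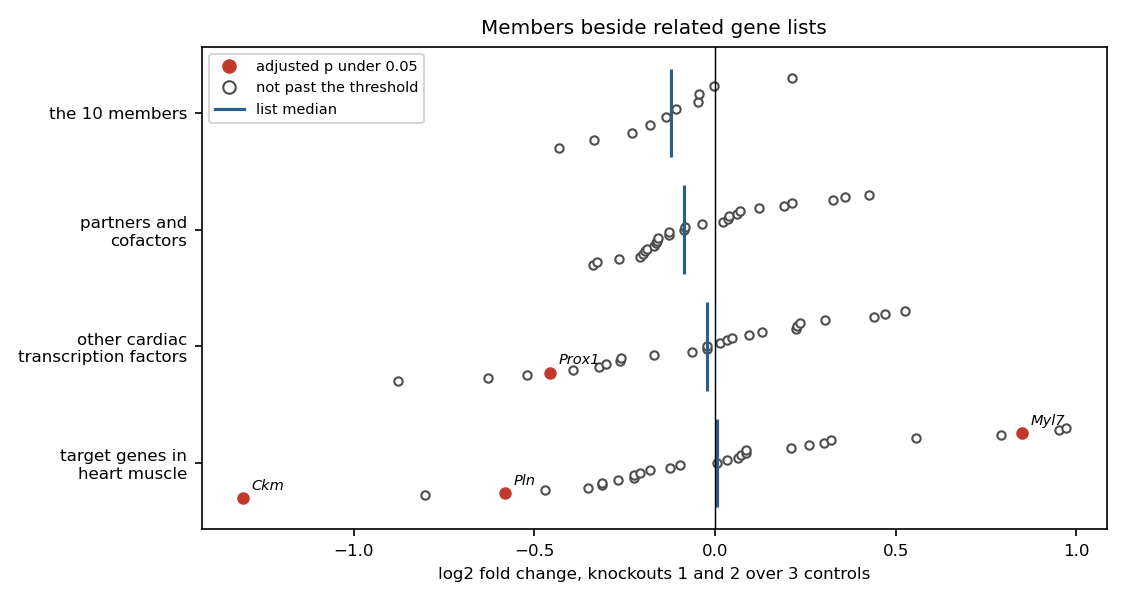
Log2 fold change of each gene in the 10 members and in 3 related lists, knockouts 1 and 2 over 3 controls. Filled points passed an adjusted p under 0.05, open points did not, and blue lines are list medians. No member passed, and the genes that did were Prox1, Ckm, Pln and Myl7.

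Genes with the most similar pattern over all 6 libraries were sought for Nkx2-5 and Tbx5 among 7847 other protein-coding genes with a mean of at least 20, by the root mean square difference of centred log2 values. For Nkx2-5 they were Cbx6, a Polycomb chromobox gene (difference 0.056), Setd1b, a histone H3 methyltransferase gene (0.057), and Mpped2, a phosphoesterase gene (0.061), beside a spread of 0.21 in Nkx2-5 itself. Cbx6, for example, was at 90.1 and 112 in knockouts 1 and 2, 124 for the library labelled knockout 3 and 127, 129 and 118 in controls. For Tbx5 they were Prkce, the protein kinase C epsilon gene (0.060), Tln2, the talin of muscle attachment sites (0.082), and Mrps7, a mitochondrial ribosomal protein gene (0.097), beside a spread of 0.23. Prkce was at 31.7 and 35.0 in knockouts 1 and 2 and 36.3 for the library labelled knockout 3, against 43.7, 43.9 and 46.99 in controls. It was picked for its likeness to Tbx5 over these same libraries, so its low value in all 3 libraries labelled knockout follows from that choice.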

How the data were processed

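PolyA RNA of single embryonic ventricles was sequenced from 6 embryos, with 500 ng of total RNA per library and single reads of 75 bases, per the labels' protocols. The submitters' processing notes list GRCm38 as the genome and name RSEM 1.2.3, CASAVA 1.8.2 and cutadapt 1.3. Annotation release, filter and scaling: not given in the sources used here. All deposited values are a normalized signal per gene: in each library 100% were whole multiples of 1 step within 0.01 reads, so reads could be recovered, and the factors matched edgeR's TMM library sizes at a ratio of 1. No gene in the table was under 1 in more than 3 libraries, which is what a filter on low values before deposit would leave. RSEM shares out reads that match several genes, and the library kit named in the labels does not mark strand.

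Symbols, coordinates and exon lengths came from GENCODE M21 on GRCm38, with 13675 genes named and 168 left without a symbol. The main test was limma 3.58.1 with trend (R 4.3.3) on log2(value + 1), with 3 controls and knockouts 1 and 2, no covariate and Benjamini-Hochberg adjustment over 13843 genes. Fold changes are knockout over control on that scale, which understates low genes. edgeR 4.0.16 (quasi-likelihood) and DESeq2 1.42.0 ran on recovered reads as alternatives. Only the 5-library fits (limma, edgeR and DESeq2) were tested on simulated counts, without a litter effect and with changes larger than those of any member. The littermate fits and those with all 6 libraries were not tested in this way. The labels name the litters, which pair knockouts 1 and 2 with controls 1 and 2. Deviations from the group means correlated at 0.32 in litter 1 and 0.24 in litter 2 over genes. Because the 2 knockouts mirror each other around their mean, the crossed pairs gave the same sizes with opposite sign (-0.24 and -0.32). The 2 litter values are therefore not separate checks of the pairing. P-values rest on the spread between single embryos together with variance shared across genes. The main test takes no account of litter. Between littermates 1 residual degree of freedom is left, so the limma p-values there lean largely on the shared variance. Nkx2-5, which limma called there, differed by -0.54 in litter 1 and -0.24 in litter 2 (log2, knockout minus control). The members, gene lists and the choice to show knockout 3 apart were made with earlier results of these data known. All 10 members are named, with up to 3 genes of smallest p from related lists, besides genes stated as chosen later; marker lists are given as sums or counts. Members were not selected on low values, and all 10 entered the tests.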

Additional observations from a re-analysis of the deposited data

How the results depend on the processing

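Over 18 alternatives, of which the edgeR and DESeq2 fits with all 6 libraries or between littermates were chosen after seeing the data, the direction of Nkx2-5, Gata6, Tbx5, Tbx20 and Mef2a did not change. Tbx5 was called in 5 of them and Nkx2-5 in 2. Leaving out 1 embryo at a time, Tbx5 stayed between -0.51 and -0.36 (log2) with limma adjusted p of 0.091 to 0.25, and Nkx2-5 between -0.52 and -0.15 with 0.078 to 0.58. Besides edgeR, DESeq2 and littermates, Tbx5 passed with genes of a mean of at least 5 alone (adjusted p = 0.043, 1 member lower, fewer genes tested). The main counts over all genes were 416 higher and 172 lower. With litter as a replicate block, limma called 681 genes higher and 444 lower, 2 members lower, with a member median of -0.089; edgeR gave 620 and 402 (2 members lower, median -0.089), and DESeq2 279 and 119 (median -0.090). With all 6 libraries limma and edgeR called 0 genes in either direction (member medians -0.10 and -0.098), and DESeq2 7 and 4 (median -0.098). On 5 libraries edgeR gave 407 and 163 with 1 member lower, DESeq2 549 and 276 with 1 member lower, and plain CPM a member median of -0.14. Without 1 embryo, calls ran from 146 to 297 higher and 44 to 90 lower, with 0 members called and medians of -0.21 to -0.089. Lowest counts came without knockout 1 (146 higher, 44 lower). Calls were also fewer by over 1.5 times without knockout 2 (236 and 55), control 2 (219 and 60) and control 3 (259 and 83), and among lower genes without control 1 (90). With 1 knockout left, its spread is assumed to be that of controls. Of the uncalled members, Gata4, Gata5, Mef2c, Hand1 and Hand2 changed sign in some alternatives. Hand1 was at -0.058, -0.0033 and -0.0061 with all 6 libraries (limma, edgeR, DESeq2) and from -0.077 (without knockout 1) to 0.50 without 1 embryo. Gata5 was at 0.018, 0.041 and 0.024 between littermates (limma, edgeR, DESeq2), 0.0014 with DESeq2 on 5 libraries, and from -0.43 to 0.34 without 1 embryo. Mef2c was at 0.032 in limma, edgeR and DESeq2 between littermates, 0.0037 with edgeR and 0.0050 with DESeq2 on 5 libraries, and from -0.15 to 0.15 without 1 embryo. Gata4 ran from -0.17 to 0.074 and Hand2 from -0.30 to 0.028 without 1 embryo. The cause was not tested. Under other scalings no member changed sign, and the median of all genes stayed within 0.1 of 0 (-0.0073 with median of ratios, -0.021 with plain CPM).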
